A study of Mus musculus with 25 samples.

Results

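The comparison described here set hepatocytes carrying an inducible YAP transgene against hepatocytes of C57BL/6 mice, with both strains of mice drinking doxycycline. It used 7 of the 25 libraries of the series, chosen by their labels: 3 libraries of the strain ApoE-rtTA, TRE-hYAP (called ApoYap) and 4 libraries of C57BL/6 (called BL/6). Of the 37117 genes in the count table, 12970 had enough counts to be tested. In ApoYap mice the ApoE promoter drives rtTA, a transcription activator that works only with doxycycline, and rtTA then switches on a human YAP gene behind a tetracycline-responsive promoter. Both groups, ApoYap Dox (n = 3) and BL/6 Dox (n = 4), had 0.2 mg/ml doxycycline in water with 2.5% sucrose for 1 week. Both strains were also sampled with no treatment, as ApoYap ctrl (n = 4) and BL/6 ctrl (n = 4), and the remaining 10 libraries, with Lats1/2 floxed alleles or AAV-Cre, entered only the shared estimate of the spread and the places that name them. The direct comparison holds the drug and the sugar water equal and leaves the transgene and every other difference between the strains. The label of the BL/6 group names no rtTA, so rtTA itself, switched on by the drug, cannot be told apart from human YAP here.

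YAP and its paralogue TAZ, encoded by Wwtr1, are coactivators that bind the TEAD transcription factors and turn on genes of growth, adhesion and the cytoskeleton. The Hippo kinases, MST1/2 and LATS1/2 with their adaptors, phosphorylate YAP and keep it out of the nucleus, and several Hippo genes are themselves YAP targets. In liver, forced YAP activity is known to drive hepatocyte division and to move hepatocytes towards a biliary or progenitor state.

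RNA came from 500000 sorted hepatocytes per sample and was counted at the 3′ ends of transcripts, with 11298979 to 15619135 counts in the ApoYap Dox libraries and 8107539 to 11820900 in the BL/6 Dox libraries. The labels name neither sex, age nor batch, and do not say whether replicates were separate animals, so p-values measure only the spread between these samples. Within a group, log2 levels correlated at 0.979 to 0.990 in ApoYap Dox and at 0.969 to 0.988 in BL/6 Dox. The ApoYap Dox libraries detected 16550 to 17077 genes and the BL/6 Dox libraries 13438 to 14672. Levels below are CPM, counts scaled to a common library size after trimmed-mean (TMM) normalization, listed in the order of replicates 1 to 3 and 1 to 4, and they are compared within a gene, since a 3′ count holds no length. Differences are log2 fold changes, ApoYap Dox over BL/6 Dox, with their standard error (SE) from edgeR. The 2 groups differed so widely that the scaling mattered: TMM factors were 1.68 to 1.84 in ApoYap Dox and 0.847 to 0.897 in BL/6 Dox, and scaling by total counts alone moved the median log2 fold change of all genes up by 1.00.

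RNA of other liver cells moved with the comparison. The summed level of 21 Kupffer cell and macrophage markers, as CPM of the library total without TMM scaling, was 15068 to 26705 in ApoYap Dox against 74.6 to 317 in BL/6 Dox, and 129 to 292 in ApoYap ctrl. All 21 of these markers were counted in each of those groups. Clec4f, a lectin specific to Kupffer cells, stood at 457, 437 and 730 CPM in ApoYap Dox and at 4.65, 12.5, 20.0 and 11.3 CPM in BL/6 Dox, a log2 difference of 5.46 ± 0.52 (SE). The sinusoidal endothelial sum was 1942 to 3650 against 54.8 to 262, with all 21 markers counted in both groups, and the stellate cell and fibroblast sum was 321 to 547 against 22.8 to 90.4, with all 20 counted. Stab2, a scavenger receptor of sinusoidal endothelium, had 60.3, 53 and 74.7 CPM against 2.40, 10.8, 7.64 and 5.96 CPM. The neutrophil sum was 155 to 306 against 0.302 to 1.78, where Ly6g, Camp, Ngp, Mmp8 and Ltf had no count in BL/6 Dox and Ly6g none in ApoYap Dox. The monocyte sum was 975 to 1277 against 344 to 447, with Chil3 and Gpnmb at 0 in BL/6 Dox. With TMM scaling the monocyte sum was 581 to 710 against 406 to 502. Its list holds Fn1, which was called lower, and the part of Fn1 in the sum was not separated. The lymphocyte sum of 15 markers was 9.27 to 17.6 against 1.73 to 2.19, with Trac at 0 in ApoYap Dox and Cd3e, Cd3g, Trac, Nkg7, Gzma, Klrb1c, Ncr1, Cd79a and Ms4a1 at 0 in BL/6 Dox. The cholangiocyte sum of 10 markers was 15.5 to 20.8 against 6.29 to 10.6, with Cftr, Tspan8, Ehf and Sctr at 0 in BL/6 Dox. With TMM scaling the cholangiocyte sums overlapped, at 8.45 to 11.7 in ApoYap Dox against 7.19 to 11.9 in BL/6 Dox. The erythroid sum of 8 markers overlapped, at 12.8 to 35.7 against 5.80 to 20.6, with Slc4a1 at 0 in BL/6 Dox. The part of these cells in the differences below was not tested, and in these bulk samples fewer cells of a type and less RNA per cell cannot be told apart.

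**Figure D1:**
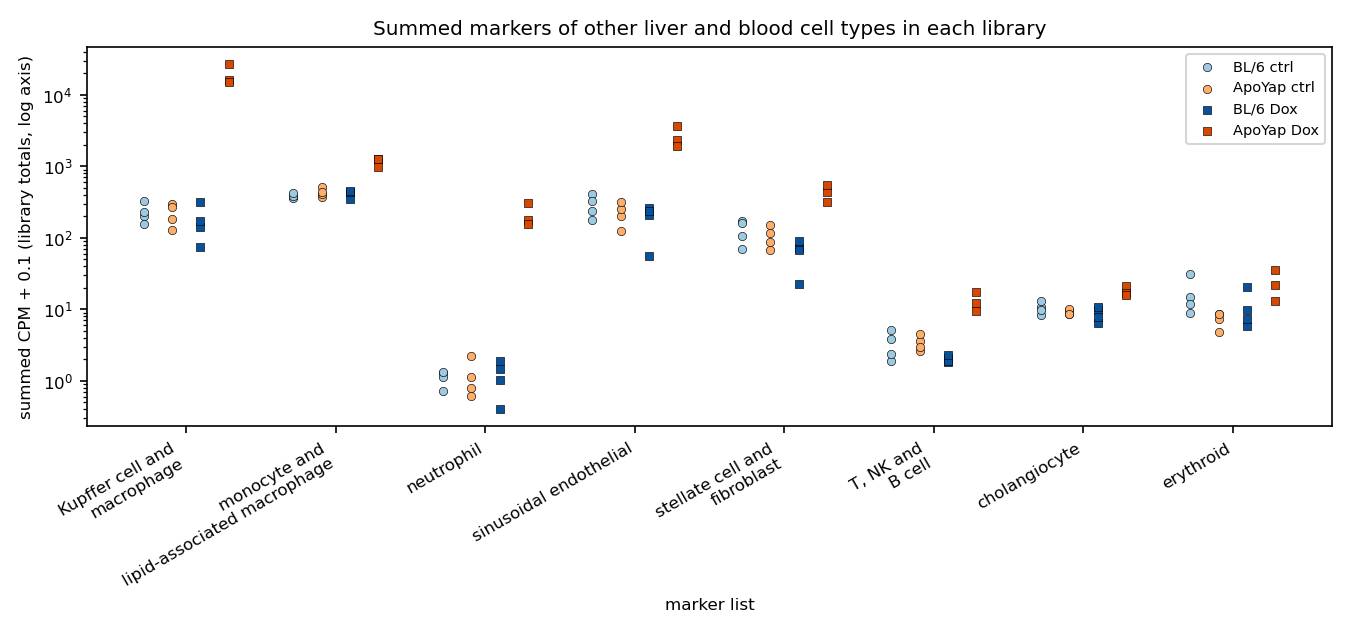
Summed markers of 8 cell types other than hepatocytes in each library of 4 groups, as CPM of the library total without TMM scaling plus 0.1, on a log axis, 1 point per library. The 3 ApoYap Dox libraries lie at 15068 to 26705 for Kupffer cell and macrophage markers, above all libraries of the other groups, while the erythroid sums overlap.

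Of the 12970 genes tested, 8612 (66.4%) differed between ApoYap Dox and BL/6 Dox at an edgeR adjusted p under 0.05. Of these, 4519 (34.8%) were higher in ApoYap Dox and 4093 (31.6%) were lower, and the median log2 fold change of all genes tested was 0.06. These shares are the background for every count of called list members below. The same split was 8983 higher and 1542 lower when scaled by total counts alone. The 3 ApoYap Dox libraries lay wholly above the 4 BL/6 Dox libraries in CPM for 4490 genes (34.6%) and wholly below for 3747 (28.9%). A difference of at least 1 on the log2 scale was reached by 3341 called genes upward and 2402 downward, and one of at least 3 by 1696 and 460, so large differences were mostly gains. With the 89 tested markers of other cell types set aside, 4446 higher and 4089 lower calls were counted. Setting these names aside can remove at most 89 calls and leaves in all other genes of those cells, so these counts do not measure the part of those cells. The difference was also compared with that between the untreated strains, (ApoYap Dox less BL/6 Dox) less (ApoYap ctrl less BL/6 ctrl), a contrast called the interaction below: it was called in 7016 genes (54.1%), 3466 of them (26.7%) higher and 3550 (27.4%) lower. The interaction shares all 7 libraries with the main comparison, so its values are set beside the others and not counted as separate support.

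The YAP target signature, a list of genes raised by YAP in many cell types, was higher in ApoYap Dox. Of its 21 tested members, 17 were called higher and none lower, with a median log2 fold change of 2.17 against 0.06 over all genes, and 16 members were called higher in the interaction. Ccn2, a cysteine-rich protein of the matrix often used to read YAP activity (chr10:24595442-24598683), had 182, 177 and 161 CPM in ApoYap Dox and 0.564, 0.238, 1.42 and 1.94 CPM in BL/6 Dox. The groups stood far apart, with a log2 fold change of 7.34 ± 0.50 and an edgeR adjusted p of 9.4e-11. Ccn1, its relative (chr3:145646976-145649981), had 171, 187 and 154 CPM against 16.8, 6.91, 8.59 and 11.1 CPM, a log2 fold change of 3.99 ± 0.31 (edgeR adjusted p = 3.5e-10). Without treatment Ccn1 differed by -0.21 ± 0.30 between the strains (edgeR adjusted p = 0.93), and the interaction was 4.2 ± 0.43. Ankrd1, a muscle and stress-response ankyrin repeat protein (chr19:36111961-36120099), had 12.5, 16.9 and 11.4 CPM against 0, 0.834, 0.377 and 0 CPM, a log2 fold change of 5.36 ± 0.69 (edgeR adjusted p = 3.2e-07). Amotl2, a junction protein that binds YAP (chr9:102716672-102733418), had 96.8, 101 and 56.3 CPM against 10.3, 6.43, 8.96 and 8.29 CPM, and its difference of 3.32 ± 0.21 had the smallest p of the list (edgeR adjusted p = 1e-12). Crim1, a membrane protein that binds growth factors of the BMP family, had 57.2, 51.4 and 46.5 CPM against 9.17, 9.65, 13.9 and 15.8 CPM, a log2 fold change of 2.09. Asap1, an ARF GTPase-activating protein of focal adhesions, differed by 1.88. In each of these 6 genes the groups did not overlap. Nt5e, Gadd45a, F3 and Dock5 were not called, and Fjx1 and Foxf2 had too few counts to be tested. Nt5e, the ectoenzyme CD73, was named after its values were seen: it had 1.12, 0.814 and 0.386 CPM against 2.96, 1.07, 1.42 and 0.907 CPM, overlapping groups and a log2 difference of -0.99 ± 0.46 (edgeR adjusted p = 0.061). It was called lower without ApoYap Dox 1 (-1.36), BL/6 Dox 2 (-1.13) or BL/6 Dox 4 (-1.17).

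The promoters of Amotl2, Crim1, Ccn1 and Myof are shown because these YAP targets were called higher together, and because TEAD factors are known to bind GGAATG. The 250 bases before the gene start are given from RefSeq, build GRCm38.p6, on the gene's strand, with GGAATG, or CATTCC where the match lies on the other strand, in capitals. Amotl2 is chr9:102717554-102717803 (+ strand), Crim1 is chr17:78199998-78200247 (+), Ccn1 is chr3:145649986-145650235 (-) and Myof is chr19:38043578-38043827 (-). The Amotl2 window lies inside the GENCODE span given above, since RefSeq places its start downstream of GENCODE's.
Amotl2: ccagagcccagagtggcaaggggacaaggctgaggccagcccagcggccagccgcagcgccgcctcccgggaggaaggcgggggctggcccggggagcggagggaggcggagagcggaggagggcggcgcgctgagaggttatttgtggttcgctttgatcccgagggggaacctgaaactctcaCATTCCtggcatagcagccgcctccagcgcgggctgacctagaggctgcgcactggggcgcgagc
Crim1: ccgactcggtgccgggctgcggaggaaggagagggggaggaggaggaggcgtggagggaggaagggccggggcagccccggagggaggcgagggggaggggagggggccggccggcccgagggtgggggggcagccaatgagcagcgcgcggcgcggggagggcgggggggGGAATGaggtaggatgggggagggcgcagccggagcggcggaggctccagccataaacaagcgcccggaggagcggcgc
Ccn1: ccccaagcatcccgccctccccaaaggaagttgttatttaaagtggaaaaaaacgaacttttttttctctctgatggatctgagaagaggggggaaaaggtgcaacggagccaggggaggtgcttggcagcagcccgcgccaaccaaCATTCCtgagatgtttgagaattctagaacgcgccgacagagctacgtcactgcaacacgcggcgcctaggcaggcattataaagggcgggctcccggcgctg
Myof: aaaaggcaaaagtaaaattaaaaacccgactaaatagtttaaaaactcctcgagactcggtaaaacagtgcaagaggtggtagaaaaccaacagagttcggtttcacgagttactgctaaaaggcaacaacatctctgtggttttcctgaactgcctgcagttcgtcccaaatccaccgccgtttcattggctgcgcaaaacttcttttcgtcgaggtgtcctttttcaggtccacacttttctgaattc
The match lay 65 bases before the start in Amotl2, 79 in Crim1 and 103 in Ccn1, on the other strand in Amotl2 and Ccn1, and Myof held none. Of 23 members of the signature, 16 had a promoter entry, and 8 of them (50%) held GGAATG on either strand in the 300 bases from 250 before to 50 after the start. Over all 32851 promoters of that length, 4817 (14.7%) held it. All 8 were among the 12 called members that had an entry. The members with an entry that were not called were F3, Gadd45a, Nt5e and the untested Foxf2, too few for a contrast. The list was made of genes raised by YAP, so the share is no support for the calls. A match is a description of the letters, not a bound site.

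The Hippo genes were called in both directions. Of 26 tested kinases, adaptors and TEAD cofactors, 16 were called higher and 5 lower, with a median log2 fold change of 1.14. Over all genes tested, 34.8% were called higher and 31.6% lower, so the share of lower calls in this list was below that of all genes. The mouse Yap1 gene had 24.8, 20.2 and 17 CPM in ApoYap Dox and 45.1, 41.1, 41.1 and 45.5 CPM in BL/6 Dox. All 3 ApoYap Dox libraries lay lower, by -1.06 ± 0.12 (edgeR adjusted p = 2e-08), but the difference was -0.06 (edgeR adjusted p = 0.65) with total counts alone. The transgene is human and its 3′ end is not described, so this count does not measure it. Wwtr1, the gene of TAZ, had 30, 33.3 and 35.5 CPM against 15.1, 10.2, 17.3 and 16.3 CPM, higher by 1.16 ± 0.19 with no overlap. Lats2, a kinase that restrains YAP and is itself a YAP target, had 20.7, 24.9 and 24.4 CPM against 8.74, 6.43, 11.5 and 12.4 CPM, higher by 1.25 ± 0.20 (edgeR adjusted p = 5.6e-06). Its paralogue Lats1 had 9.10, 10.6 and 9.22 CPM against 12.1, 7.62, 18.2 and 16.7 CPM: the groups overlapped and the call rested on the design, with -0.51 ± 0.21 and edgeR adjusted p = 0.036, but -0.44 and 0.083 with the replicate block, 0.49 with total counts alone and -0.03 without BL/6 Dox 3 and 4. The Lats1 call was also lost without ApoYap Dox 1 (-0.47), ApoYap Dox 3 (-0.48), BL/6 Dox 3 (-0.33) or BL/6 Dox 4 (-0.40). Mob1a, the adaptor that activates LATS kinases, was higher by 1.45, the scaffold Wwc1 (KIBRA) by 1.15, and Wtip, an Ajuba family LIM protein that inhibits LATS, by 4.98. Wtip had 19.5, 17.9 and 21.3 CPM in ApoYap Dox and at most 1.17 CPM in BL/6 Dox.

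**Figure D2:**
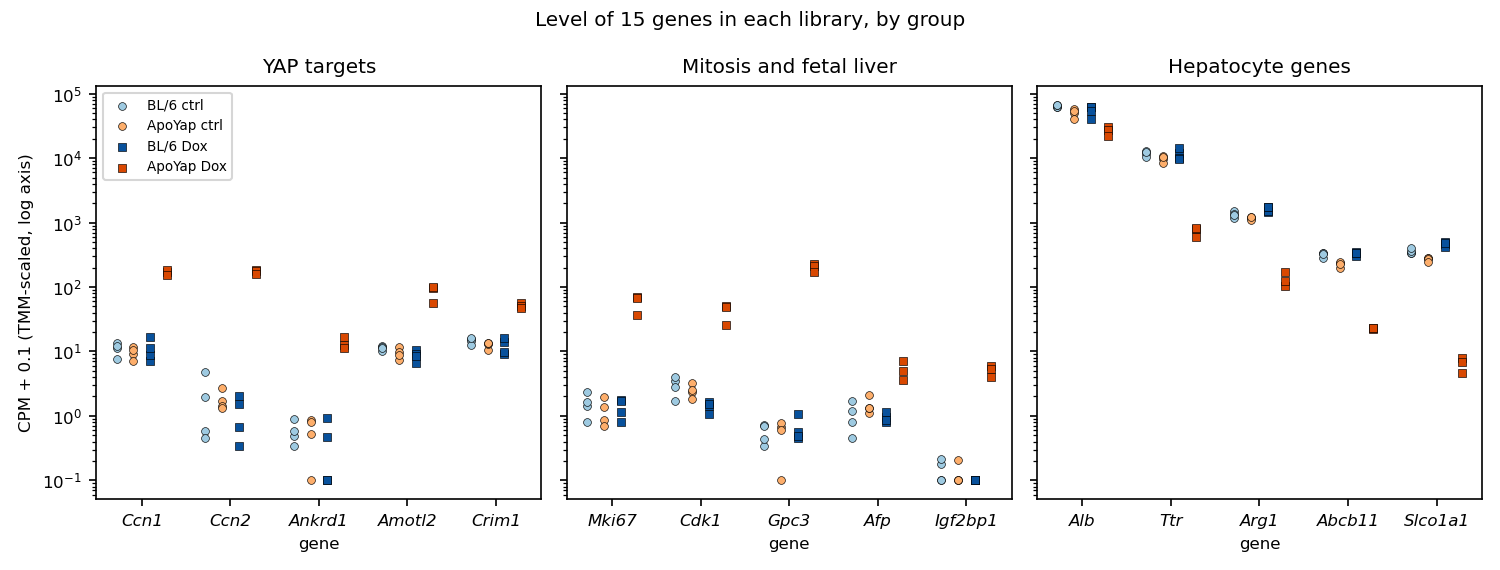
Level of 15 genes in each library of 4 groups, as TMM-scaled CPM plus 0.1 on a log axis, 1 point per library. In ApoYap Dox Ccn2 lies at 161 to 182 CPM against at most 1.94 in BL/6 Dox, and the 2 untreated groups lie near BL/6 Dox for Ccn1 and Ccn2.

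The largest gains were in genes nearly silent in BL/6 Dox. Such genes passed the count filter through libraries where they are high, so their direction was nearly set in advance. Krt4, a keratin of stratified epithelia (chr15:101918535-101924735), had 26.5, 27.7 and 9.46 CPM in ApoYap Dox and 1 count in all 4 BL/6 Dox libraries, a ratio of 739 with a 95% interval of 133 to 29224 that covers counting error only. Gpc3, a cell-surface heparan sulfate proteoglycan of fetal liver and liver tumours (chrX:52272426-52613950), had 228, 211 and 169 CPM against 0.987, 0.357, 0.472 and 0.389 CPM, a log2 fold change of 8.54 ± 0.35 (edgeR adjusted p = 2.1e-15). Spink1, a secreted trypsin inhibitor, had 375, 344 and 234 CPM against 1.97, 0.596, 1.13 and 0.777 CPM, higher by 8.16 ± 0.70. None of these 3 genes overlapped between groups. Fabp7, a fatty acid binding protein better known from brain (chr10:57784881-57788450), had 112, 104 and 166 CPM against 0.141, 0.476, 1.13 and 0.130 CPM, higher by 7.89 ± 0.55. Apela, a peptide ligand of the apelin receptor (chr8:65028417-65037336), had 41.8, 27.6 and 52.0 CPM against 0, 0, 0.377 and 0 CPM, higher by 8.31 ± 0.58. Apln and the receptor gene Aplnr had too few counts to be tested, with 14 and 6 counts in ApoYap Dox and 0 and 2 in BL/6 Dox. Mmp9, a gelatinase that is also on the neutrophil list (chr2:164940780-164955850), had 80.6, 79.0 and 134 CPM against 0.141, 0, 0.377 and 0.259 CPM, higher by 8.82 ± 0.53. Cx3cr1, the fractalkine receptor of monocytes and macrophages (chr9:119901616-120069879), had 81.7, 34.5 and 109 CPM against 0.423, 0, 0.0944 and 0.389 CPM, higher by 8.42 ± 0.62. These 2 genes moved with the marker sums of immune cells given above, whose part was not tested.

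The 8 genes named for the largest losses were 5 major urinary protein (Mup) genes, the male-biased Hsd3b5 and Elovl3, and Slc22a7. Hsd3b5, a male-biased hydroxysteroid dehydrogenase (chr3:98618634-98630252), had 0.397, 0.181 and 0.241 CPM in ApoYap Dox against 234, 150, 100 and 136 CPM in BL/6 Dox, lower by -9.05 ± 0.71 (edgeR adjusted p = 9.6e-10). Elovl3, a fatty acid elongase (chr19:46131897-46135694), had 1.34, 0.271 and 0.772 CPM against 246, 319, 189 and 294 CPM, a log2 fold change of -8.30 ± 0.72. Slc22a7, the organic anion transporter OAT2 (chr17:46432183-46438457), had 3 counts in ApoYap Dox against 649 in BL/6 Dox, 451-fold lower with a 95% counting interval of 154 to 2193. No library of one group reached the other in any of these genes. Mup8 (chr4:60218621-60222599) had 0.0723, 0.0905 and 0.0965 CPM against 6.63, 11.7, 261 and 12.3 CPM, where BL/6 Dox 3 stood far above the rest, and its log2 fold change was -9.59 ± 1.64. Mup11 had 22.4, 14.4 and 8.64 CPM against 5227, 3158, 3310 and 6138 CPM, and Mup12 had 2.82, 1.67 and 0.820 CPM against 651, 764, 651 and 960 CPM. Mup1 and Mup14 were lower by -8.33 and -8.21. All 17 tested Mup genes, which encode secreted pheromone carriers, were called lower, with a median of -7.27. The copies are nearly identical, so how counts split between single Mup genes is uncertain.

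Genes of cell division were higher together. All 32 tested mitosis and cytokinesis genes were called higher, with a median log2 fold change of 5.40, as were 27 of 30 DNA replication genes (median 2.31) and 19 of 23 cyclins, kinases, E2F factors and inhibitors (median 2.49). Mki67, the proliferation marker Ki-67, had 70.2, 67.8 and 36.2 CPM in ApoYap Dox against 0.705, 1.67, 1.60 and 1.04 CPM in BL/6 Dox, a log2 fold change of 5.48 ± 0.45 (edgeR adjusted p = 1.1e-09). The third ApoYap Dox library was the lowest of its group and still far above BL/6 Dox. Cdk1, the mitotic kinase, was higher by 4.95 ± 0.40, and so was Mcm6, a subunit of the replicative helicase, by 4.95 ± 0.29. Uhrf1, which carries DNA methylation through replication, had 1 count in BL/6 Dox and a ratio of 333 (95% counting interval 59.5 to 13163). Ccnd1, cyclin D1, had 107, 97.4 and 84.4 CPM against 3.53, 1.31, 7.46 and 4.14 CPM. E2f1 and Foxm1, transcription factors of S phase and mitosis, were higher by 2.95 and 5.77. Lower calls in the division lists included Mcm10 and Rbl2. Mcm10, a replication initiation factor, had 12.8, 14.7 and 8.16 CPM against 106, 106, 137 and 105 CPM, lower by -3.25 ± 0.41 (edgeR adjusted p = 6.6e-07) with no overlap. Its BL/6 Dox level lay far above that of Mki67. The strand of counting is not given, and whether all these counts come from Mcm10 was not tested. Rbl2, the pocket protein p130 of resting cells, was lower by -0.70, and at 0.29 with total counts alone. Between the groups, division genes moved with the Kupffer cell and endothelial sums, whose part was not tested. Within ApoYap Dox, the third library had the lowest TMM-scaled Mki67 level and, without TMM scaling, the highest of both sums, at 26705 and 3650 CPM. The order of libraries within a group does not test that part.

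Inhibitors of the cycle were higher as well. Cdkn1a, the p53-responsive inhibitor p21, had 189, 187 and 143 CPM against 5.22, 6.55, 10.8 and 8.55 CPM, higher by 4.46 ± 0.53. Pmaip1, the BH3-only protein NOXA, was higher by 6.40 ± 0.55. Of 17 tested p53 targets, 11 were called higher and 3 lower, with a median of 0.85, and the lower calls fell to 1 with the replicate block. Over all genes tested, 34.8% were called higher and 31.6% lower.

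The cytoskeleton list rose nearly whole. Of 31 tested genes of the actin cytoskeleton and focal adhesion, 27 were called higher and 2 lower, with a median log2 fold change of 2.20. Tln1, talin, which links integrins to actin, had 292, 271 and 307 CPM in ApoYap Dox against 55.8, 79.7, 57.3 and 59.1 CPM in BL/6 Dox, higher by 2.20 ± 0.13 (edgeR adjusted p = 3.5e-13). Myl12a, a myosin regulatory light chain, had 380, 478 and 432 CPM against 57.8, 40.9, 78.3 and 89.0 CPM. The lower members were Rdx, radixin, the ezrin relative of hepatocyte canaliculi, at -1.04 ± 0.12 but -0.04 and not called with total counts alone, and Cnn3, an actin-binding calponin, at -0.46 ± 0.11 but 0.54 with total counts alone. Among keratins, Krt18 and Krt8, the pair hepatocytes make, were higher by 1.22 and 1.09, though the Krt8 libraries overlapped. Krt23 was lower by -2.11, with overlapping libraries, and at -1.41 was no longer called without BL/6 Dox 3 and 4 (edgeR adjusted p = 0.14), nor at -1.12 with total counts alone (edgeR adjusted p = 0.12). Of 13 tested annexins and S100 proteins, 8 were called higher and 3 lower (median 2.82). Anxa2, a membrane-binding annexin, had 92.1, 75.7 and 68.1 CPM against 0.564, 3.57, 1.98 and 2.59 CPM. S100a11 was higher by 5.90 and Anxa5 by 2.82, while S100a1 was lower by -1.85 ± 0.13, at 91.0, 107 and 90.7 CPM against 315, 437, 322 and 316 CPM. S100a10 was not called, at 0.17 ± 0.14, but was 1.16 and called with total counts alone (edgeR adjusted p = 4.3e-08). S100a4, among the higher calls, is also on the monocyte list. Between the groups, cytoskeleton, annexin and S100 genes moved with the Kupffer cell, endothelial and stellate cell sums given above, whose part was not tested.

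Adhesion genes divided by kind. Of 18 tested integrins, cadherins, claudins and connexins, 7 were called higher and 9 lower, with a median of -0.26 that was 0.74 with total counts alone. The 7 higher calls were integrins, Gja1 and Tjp1, and the 9 lower calls were cadherins, claudins, occludin and the connexins Gjb1 and Gjb2. Gjb1, connexin 32 of hepatocyte gap junctions, had 186, 207 and 131 CPM against 881, 1123, 685 and 704 CPM, lower by -2.28 ± 0.18 (edgeR adjusted p = 5.2e-11). Cdh1, E-cadherin, was lower by -2.02, Cldn1, a tight junction claudin, by -2.05, and Gjb2, connexin 26, by -1.66. Of 21 tested matrix genes, proteases and inhibitors, 19 were called higher and 2 lower (median 2.83). Timp2, a metalloproteinase inhibitor, had 202, 183 and 180 CPM against 1.41, 3.45, 5.28 and 5.70 CPM. Col18a1, a basement membrane collagen that hepatocytes make, was lower by -1.49 ± 0.12, and Fn1, fibronectin, by -0.70, which was 0.29 with total counts alone. The matrix genes moved with the stellate cell and endothelial sums, whose part was not tested.

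Signalling genes are given list by list. Of 16 tested AP-1 and immediate early genes, 12 were called higher and none lower (median 2.13). Klf2 and Klf6, Krüppel-like factors, were higher by 4.92 and 4.23, and Ier3 by 5.32. Klf2 had 147, 206 and 330 CPM in ApoYap Dox against 2.12, 5.60, 13 and 8.42 CPM in BL/6 Dox. Of 9 dual specificity phosphatases, which switch off MAP kinases, 6 were called higher and 1 lower (median 2.17). Dusp1 had 285, 416 and 486 CPM against 39.9, 43.9, 104 and 57.1 CPM, higher by 2.69 ± 0.32, and Dusp2 was higher by 5.94. Dusp14 was lower by -3.10 ± 0.41. Of 19 tested members of the EGFR, MET and FGF list, 7 were called higher and 6 lower, with a median of 0.23 that was -1.18 over the genes with at least 10 CPM in 3 libraries. These shares are near those over all genes, 34.8% higher and 31.6% lower. The 6 lower calls were receptors and the coreceptor Klb. Met, the hepatocyte growth factor receptor, had 17.2, 21.2 and 13 CPM against 47.8, 61.3, 46.1 and 49.2 CPM, lower by -1.57 ± 0.14. Erbb3 was lower by -1.80, Klb, the FGF21 coreceptor, by -1.78, and Fgfr3 by -1.43. Of 11 Notch genes, 7 were called higher and none lower (median 2.29). Jag1, a Notch ligand, had 36.5, 33.9 and 21.4 CPM against 1.55, 2.26, 3.21 and 1.81 CPM. Hey1, a Notch target, had no count in BL/6 Dox and was at least 31.2-fold higher, against a floor of 3 counts over the group. Dll4 and Notch4 were also called higher. Between the groups, Notch genes and Klf2 moved with the endothelial sum given above, whose part was not tested.

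Fetal and biliary genes were higher in part. Of 12 tested fetal liver genes, 9 were called higher and none lower (median 2.88), and H19, Igf2, Dlk1 and Lin28b had too few counts. Igf2bp1, an RNA-binding protein of fetal tissue, had no count in BL/6 Dox and was at least 56.9-fold higher. Bex1, also at 0 there, was at least 47.2-fold higher. With no count in BL/6 Dox, Igf2bp1 and Bex1 passed the count filter through other libraries and could not be called lower. Scd2, a desaturase of fetal liver, was higher by 4.58 ± 0.39. Afp, the fetal albumin relative, had 6.97, 4.8 and 3.47 CPM in ApoYap Dox against 0.846, 0.715, 1.04 and 0.777 CPM in BL/6 Dox, higher by 2.57 ± 0.37 (edgeR adjusted p = 1.3e-06). Its groups did not overlap. Of 8 tested biliary and progenitor markers, 5 were called higher and 1 lower (median 3.52), while Epcam, Krt7, Krt19, Cftr and Tspan8 had too few counts. Over all genes tested, 34.8% were called higher and 31.6% lower. Spp1, osteopontin, and Lgals3, galectin-3, were higher by 6.05 and 5.80, and macrophages also make both. Sox9, a biliary and progenitor transcription factor, had 42.1, 29.4 and 31.6 CPM against 23.8, 37.9, 19.6 and 36.9 CPM, overlapping groups and a difference of 0.22 ± 0.32 (edgeR adjusted p = 0.56), which with total counts alone was 1.23 and called.

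Interferon-stimulated and chemokine genes were higher. Of 28 tested interferon-stimulated genes, 23 were called higher and none lower (median 2.28). Mx1, an antiviral GTPase, had 6.97, 5.29 and 12.3 CPM against 0.141, 0.357, 0.189 and 0.130 CPM, and Ifit2 was higher by 5.60. Of 16 chemokine genes, 13 were called higher and 1, Cxcl12, lower (median 4.97). All 21 Kupffer cell and macrophage markers were called higher (median 5.69), and 20 of 21 endothelial (3.07), 15 of 20 stellate cell (1.79) and 5 of 5 tested neutrophil markers (4.56). The neutrophil markers Cxcr2, Ly6g, Camp, Ngp, Mmp8, Elane and Ltf had too few counts to be tested. In BL/6 Dox the whole neutrophil sum was at most 1.78 CPM. Its tested members therefore passed the count filter through libraries where they are high, so their higher calls are no support. Of 11 tested monocyte markers, 10 were called higher and Fn1 lower, and the median was 6.06, or 4.84 with genes at 0 in a group set to their bound. Interferon and chemokine genes moved with these markers, whose part was not tested.

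Stress and acute phase lists are read against the 66.4% of all genes that were called, 34.8% higher and 31.6% lower. None of 17 tested ER chaperones was called higher and 11 were lower, with a median of -0.59 that was 0.41 with total counts alone. Of 12 heat shock proteins, 1 was called higher and 6 lower (median -0.25, but 0.76 with total counts alone). Hspd1, the mitochondrial chaperonin, was lower by -1.47, and Hspa1a, an inducible Hsp70, had 7.73, 13.3 and 13.4 CPM against 0.282, 0.596, 0.283 and 0.259 CPM. Of 18 tested ATF4 and serine synthesis genes, 8 were called higher and 1, mitochondrial Shmt2, lower (median 0.74). Psat1, a serine synthesis enzyme, had 18.6, 19.7 and 9.89 CPM against 0.141, 0.715, 0.0944 and 0.907 CPM. Of 16 NRF2 antioxidant genes, 4 were called higher and 7 lower, with a median of -0.30 that was 0.71 with total counts alone. Gclc, the rate-limiting enzyme of glutathione synthesis, was lower by -2.06 ± 0.16. Of 23 acute phase proteins, 13 were called lower and 2, the metallothioneins Mt1 and Mt2, higher (median -1.05). Crp, C-reactive protein, had 34.1, 45.2 and 28.4 CPM against 364, 436, 299 and 280 CPM. Mt2 was higher by 3.90 ± 0.86, and Mt1 by 2.08 ± 0.71, a call lost without ApoYap Dox 2 (1.74, edgeR adjusted p = 0.059).

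Secreted liver proteins were lower. Of 27 tested genes of albumin, apolipoproteins and carriers, 26 were called lower and none higher (median -2.01), as were 30 of 32 complement and coagulation genes (median -2.08). Alb, serum albumin (chr5:90460897-90476602), had 30651, 27659 and 21753 CPM in ApoYap Dox against 62761, 40096, 61714 and 53736 CPM in BL/6 Dox. The groups did not overlap and the difference was -1.03 ± 0.16 (edgeR adjusted p = 4.8e-06), but it was -0.03 with total counts alone. Apoa2 fell much further, with 164, 279 and 134 CPM against 10091, 10578, 9526 and 9776 CPM, lower by -5.70 ± 0.25. Ttr, transthyretin, was lower by -3.97, C8g, a complement chain, by -4.42, and F7, coagulation factor VII, by -4.04. Igf1, the growth hormone target that liver secretes, was named after its values were seen and was lower by -1.68 ± 0.14.

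Male-biased genes were lower. Of 17 tested male-biased genes, 16 were called lower and none higher (median -5.57). Slco1a1, a male-biased organic anion transporter, had 7.95, 6.79 and 4.54 CPM in ApoYap Dox against 507, 461, 413 and 474 CPM in BL/6 Dox, and Nudt7 was lower by -4.83. Of 10 tested female-biased genes, 3 were called higher and 3 lower (median 0.40), shares near the 34.8% and 31.6% over all genes, and 11 were not tested. Cux2, a female-biased transcription factor, had 1 count in BL/6 Dox and a ratio of 307 (95% counting interval 55.0 to 12159). Xist, the X-inactivation RNA, had 1 count in all ApoYap Dox libraries and 2 in all BL/6 Dox libraries. Ddx3y, a Y-linked gene, had 69.5, 80.3 and 76.4 CPM against 111, 91.6, 95 and 102 CPM, a difference of -0.40 ± 0.10 that was 0.60 with total counts alone, and it was counted in every library of both groups.

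Metabolic functions of hepatocytes were lower across most lists. Of 42 tested urea cycle and amino acid genes, 41 were called lower (median -2.83). Arg1, arginase, had 102, 168 and 125 CPM in ApoYap Dox against 1459, 1538, 1719 and 1750 CPM in BL/6 Dox, and Uroc1, urocanase, was lower by -4.15. Of 26 bile acid genes, 21 were called lower and 2 higher (median -2.31). Abcb11, the bile salt export pump, had 22.4, 23.2 and 23.2 CPM against 307, 354, 335 and 340 CPM, lower by -3.87 ± 0.13 (edgeR adjusted p = 4.4e-17). Its libraries were nearly alike within each group. Cyp7a1, which starts the classic route from cholesterol to bile acids, had 3.04, 4.57 and 5.89 CPM against 135, 51.1, 92.1 and 110 CPM, lower by -4.44 ± 0.87. Slc10a1, the bile salt uptake carrier NTCP, was named after its values were seen: it had 4.19, 9.86 and 5.98 CPM against 369, 255, 305 and 266 CPM. The 2 higher members were the export pumps Abcb1a, at 3.14 ± 0.35, and Abcc4, at 4.22 ± 0.51, and Slco1a4 was not called, at 0.41 ± 0.31, but was 1.40 and called with total counts alone (edgeR adjusted p = 0.00032).

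Drug-metabolizing enzymes were lower in the same way. Of 33 tested cytochrome P450 genes, 29 were called lower and 1, Cyp4b1, higher (median -3.25). Cyp2e1, a pericentral P450, had 7.80, 10.1 and 5.89 CPM against 2146, 829, 1193 and 1192 CPM, and Cyp2f2, a periportal one, had 137, 212 and 147 CPM against 2015, 3085, 2066 and 2350 CPM. Of 26 phase II enzymes, 23 were called lower and 2, Sult1a1 and Gstm2, higher (median -2.17). Sult1a1, a phenol sulfotransferase, had 195, 260 and 155 CPM against 82.1, 60.1, 72.4 and 56.3 CPM. Gstm2, a glutathione transferase, was higher by 1.68, and Ugt2a3, a glucuronosyltransferase, was lower by -3.30. Genes of both ends of the lobule were lower: 19 of 23 tested pericentral genes (median -2.83) and 20 of 22 periportal genes (median -3.67) were called lower. Ctsc was the 1 periportal member called higher.

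Lipid and sugar genes were lower with named exceptions. Of 24 cholesterol genes, 23 were called lower (median -1.71), and Cyp51, lanosterol demethylase, was lower by -2.63. Of 29 sugar-responsive and lipogenic genes, 24 were called lower and 3 higher (median -1.56). Fasn, fatty acid synthase, had 32.0, 29.2 and 28.2 CPM in ApoYap Dox against 202, 311, 296 and 174 CPM in BL/6 Dox, lower by -3.04 ± 0.25. Khk, ketohexokinase, was lower by -2.02 and Fads2, a desaturase, by -3.42. The higher members were G6pdx and Pgd, enzymes of the pentose phosphate pathway, at 3.44 and 1.26, and Txnip, at 1.52 ± 0.53. The call of Txnip, a sugar-responsive arrestin, was lost without ApoYap Dox 3 (1.31, edgeR adjusted p = 0.064), and its difference was 0.84 without BL/6 Dox 1 and 2 and 2.85 without BL/6 Dox 3 and 4. Of 23 glycolysis genes, 8 were called higher and 7 lower, shares near the 34.8% and 31.6% over all genes, with a median of -0.13 that was 0.88 with total counts alone. Hk2, a hexokinase that healthy hepatocytes make little of, had 40.8, 44.1 and 52.6 CPM against 0.564, 1.19, 1.04 and 0.648 CPM, and Pkm, the muscle-type pyruvate kinase, was higher by 5.43. Of 13 gluconeogenesis and glycogen genes, 12 were called lower and 1 higher (median -1.64), and with the replicate block none was called higher. Gys2, liver glycogen synthase, was lower by -3.36. Of 28 fatty acid oxidation genes, 22 were called lower and 5 higher (median -1.5), and Fabp1, the liver fatty acid binding protein, had 36.3, 70.6 and 30.7 CPM against 4451, 3618, 3972 and 3973 CPM.

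Liver transcription factors were lower as a group. Of 29 tested, 24 were called lower and 1, Nr1h3 (LXR alpha), higher, with a median of -1.56. Hnf4a, the central hepatocyte nuclear receptor, had 107, 130 and 97.2 CPM in ApoYap Dox against 386, 236, 286 and 336 CPM in BL/6 Dox, lower by -1.48 ± 0.15 (edgeR adjusted p = 5.3e-09). Without treatment it differed by -0.15 ± 0.14 between the strains (edgeR adjusted p = 0.88). Ghr, the growth hormone receptor, had 38.5, 42.8 and 32.0 CPM against 477, 285, 441 and 531 CPM, lower by -3.52 ± 0.19, and Onecut2 was lower by -1.92. The Nr1h3 libraries overlapped, at 107, 93.1 and 123 CPM against 68.4, 100, 63.2 and 65.7 CPM, and macrophages also express this gene.

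**Figure D3:**
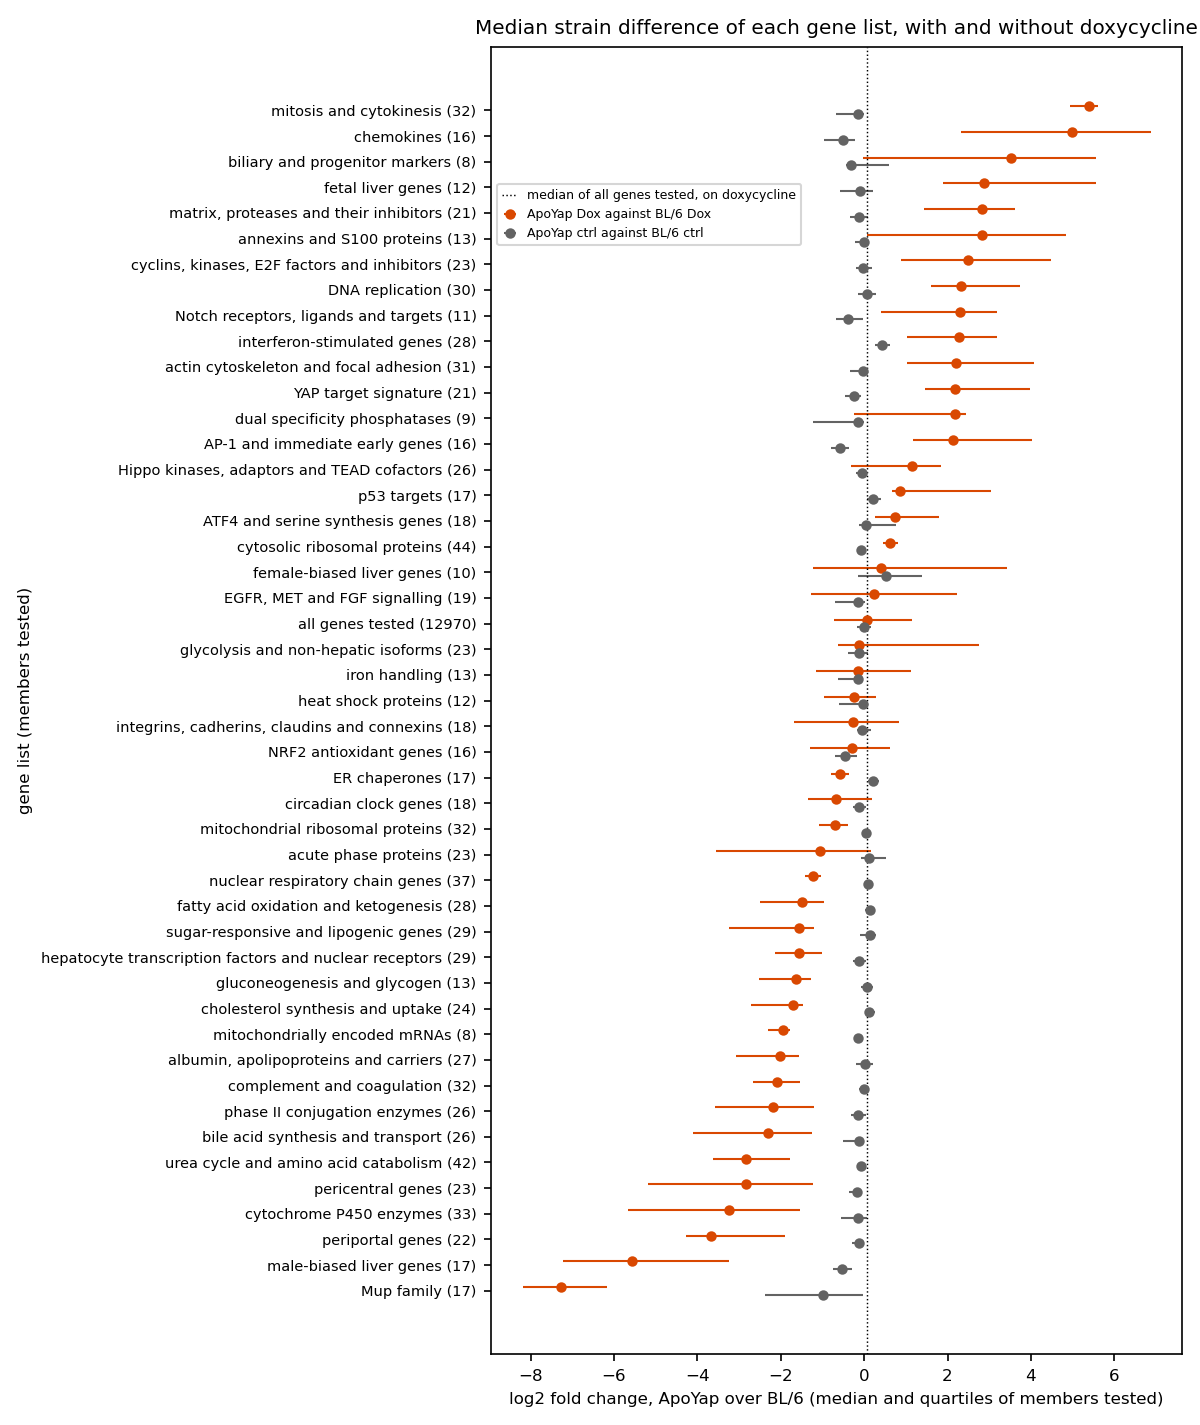
Median and quartiles of the log2 fold change, ApoYap over BL/6, of the tested members of each gene list with at least 8 of them, markers of other cell types left out, on doxycycline and without it. On doxycycline the medians run from -7.27 for the Mup family to 5.40 for mitosis and cytokinesis, against 0.06 for all genes, and with total counts alone the medians of 9 of all 57 lists turn sign: integrins to 0.74, ER chaperones to 0.41, heat shock proteins to 0.76, NRF2 genes to 0.71, X and Y genes to 0.63, glycolysis to 0.88, mitochondrial ribosome to 0.31, clock to 0.32 and iron to 0.87.

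Mitochondrial genes were lower and cytosolic ribosome genes higher. All 8 tested mitochondrially encoded mRNAs were called lower (median -1.95). The mitochondrial share of counts was 6.37% ± 0.866 (SD, n = 3) in ApoYap Dox and 14.9% ± 1.47 (SD, n = 4) in BL/6 Dox. mt-Nd2, a subunit of complex I, had 9690, 11979 and 7675 CPM against 67275, 92867, 70783 and 66230 CPM. Of 37 nuclear respiratory chain genes, 33 were called lower (median -1.23), and Sdha, of complex II, was lower by -1.78. Of 32 mitochondrial ribosomal proteins, 24 were called lower, with a median of -0.69 that was 0.31 with total counts alone. Of 44 cytosolic ribosomal proteins, 40 were called higher and none lower, with the small median of 0.62, and Rpl32 had 555, 580 and 604 CPM against 339, 258, 317 and 312 CPM. Of 18 clock genes, 8 were called lower and 1, Per1, higher (median -0.67, but 0.32 with total counts alone). Per1 was higher by 1.36, a call lost without ApoYap Dox 2 (1.28), ApoYap Dox 3 (1.13) or BL/6 Dox 1 (1.22). Cry1, a repressor of the clock, was lower by -2.42. Of 13 iron genes, 5 were called higher and 5 lower (median -0.14, but 0.87 with total counts alone). These shares are near the 34.8% higher and 31.6% lower over all genes. Tmprss6, a protease that restrains hepcidin, was lower by -2.37, and Id1, a BMP target, was higher by 4.06.

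Few genes were called between the untreated strains. ApoYap ctrl against BL/6 ctrl gave 57 calls (0.439%), 19 higher (0.146%) and 38 lower (0.293%), from the same fit. Other fits called more, with 41 higher and 69 lower in DESeq2 and 70 and 125 when only these 2 groups were fitted. This comparison shares no library with the main one. Of the 57, 51 were called on doxycycline too, 46 in the same direction, which is 80.7% of the untreated calls and 0.534% of the main calls, where 66.4% of all genes tested were called on doxycycline, 34.8% higher and 31.6% lower. Cd36, a fatty acid translocase (chr5:17781690-17888801), had 24.9, 33.5, 35.0 and 38.4 CPM in ApoYap ctrl and 11.9, 7.16, 10.6 and 8.45 CPM in BL/6 ctrl. It had 117, 134 and 133 CPM in ApoYap Dox and 4.37, 5.00, 9.34 and 5.57 CPM in BL/6 Dox, so it was higher by 1.78 ± 0.19 without the drug (edgeR adjusted p = 1e-05) and by 4.37 ± 0.21 with it. The difference between these differences was 2.6 ± 0.27. Plaat3, a phospholipase, was higher by 1.12 untreated and 2.19 treated, Nucb2, a nucleobindin, by 1.32 and 2.89, Pak1, a kinase under Rac, by 1.33 and 4.18, and Csrp1, a LIM protein, by 1.22 and 4.30. The untreated call of Csrp1 (edgeR adjusted p = 0.045) was lost when any 1 library of the 2 groups was left out, with an adjusted p of up to 0.19. The call of Pak1 was kept only without ApoYap ctrl 2 or BL/6 ctrl 1, and that of Nucb2 only without ApoYap ctrl 2 or 4, with edgeR adjusted p of up to 0.13 and 0.097. Among the lower genes, Car3, a carbonic anhydrase, had 662, 716, 655 and 693 CPM in ApoYap ctrl against 1724, 1857, 2092 and 1947 CPM in BL/6 ctrl, and its difference was -1.48 untreated and -7.37 treated. Mup12, Mup1 and Mup7 were lower by -2.91, -2.68 and -2.46 untreated. Aox3, an aldehyde oxidase, was named after its values were seen, at -1.5 untreated and -7.12 treated. Cyp3a11, a P450, was lower by -2.42 (edgeR adjusted p = 0.042), with 77.5 CPM in ApoYap ctrl 2 beside 424 to 773 CPM in the other 3, and its call was kept only without ApoYap ctrl 1 or 2, with an edgeR adjusted p of up to 0.13. Among the chromosomes, chromosome 1 held 8 of the untreated calls, 1.04% of its 770 tested genes, and chromosome 4 held 7, of them 4 protein-coding Mup genes and the pseudogene Mup-ps20. The Mup genes lie between the start of Mup7 and the end of Mup20, chr4:60066469-62054158.

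Some genes were called between the strains both with and without the drug, while their interaction was not called. Dpy19l3, a tryptophan mannosyltransferase, had 3.40, 3.44 and 3.62 CPM in ApoYap Dox against 7.76, 9.89, 8.68 and 7.77 CPM in BL/6 Dox, and 2.40, 3.69, 3.74 and 2.31 CPM in ApoYap ctrl against 8.17, 8.12, 9.42 and 8.68 CPM in BL/6 ctrl. Its interaction was 0.21 ± 0.35 (edgeR adjusted p = 0.63). With total counts alone the treated difference of Dpy19l3 was -0.28 and not called (edgeR adjusted p = 0.29), and its interaction was 1.14 and called (edgeR adjusted p = 0.0053). Serpine2, a protease inhibitor, was lower by -2.74 treated and -2.86 untreated, Gsta2 by -1.75 and -2.09, and Ncam2 by -1.44 and -1.44. With total counts alone the treated calls of Gsta2 (-0.75, edgeR adjusted p = 0.058) and Ncam2 (-0.45, edgeR adjusted p = 0.17) were lost, and the Gsta2 interaction was 1.27 and called (edgeR adjusted p = 0.026). Mpped2 was higher by 1.88 treated and 2.07 untreated. Igf2bp3, on the fetal liver list, was at least 25.3-fold higher in ApoYap ctrl than in BL/6 ctrl, where it had no count, so the sizes of its differences with and without the drug are not compared. On the drug it had 3.07, 3.21 and 1.74 CPM in ApoYap Dox against 0.282, 0, 0.283 and 0 CPM in BL/6 Dox, higher by 4.10 ± 0.80. These 6 genes were chosen after their values were seen, from genes called in both comparisons whose interaction was not called, which does not show that the differences were equal. The untreated call of Ncam2 was lost without ApoYap ctrl 1, 3 or 4 or BL/6 ctrl 2 or 4, with an edgeR adjusted p of up to 0.083.

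**Figure D4:**
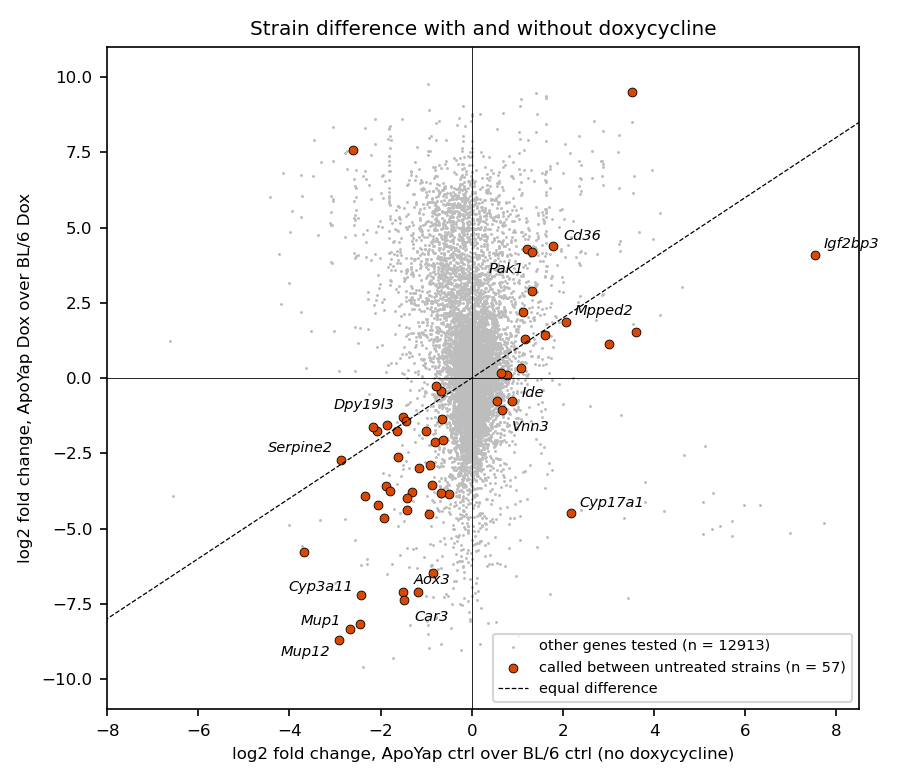
Log2 fold change of each tested gene between the strains, on doxycycline (vertical axis) against no treatment (horizontal axis), with the 57 genes called between the untreated strains as larger points and the line of equal difference dashed. The untreated differences cluster near 0 for most genes while the treated ones spread over many units, and Dpy19l3, Serpine2 and Mpped2 lie near the line.

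Of the 51 genes called in both comparisons, 5 differed in opposite directions, and the 3 with the smallest untreated p are described. Cyp17a1, a steroid hydroxylase of the female-biased list (chr19:46667165-46673172), had 46.8, 68.7, 37.9 and 74.7 CPM in ApoYap ctrl against 14.6, 14.6, 7.54 and 13.3 CPM in BL/6 ctrl, but 0.470, 0.950 and 1.30 CPM in ApoYap Dox against 24.8, 20.4, 18 and 16.7 CPM in BL/6 Dox. It was higher by 2.18 ± 0.32 without the drug and lower by -4.48 ± 0.44 with it, an interaction of -6.66 ± 0.55 (edgeR adjusted p = 2.4e-09). Ide, the insulin-degrading enzyme (chr19:37268743-37337852), was higher by 0.87 and lower by -0.78, the latter being 0.24 with total counts alone, an interaction of -1.65 ± 0.22. Vnn3, a pantetheinase (chr10:23851462-23869843), was higher by 0.66 and lower by -1.08, an interaction of -1.73 ± 0.20. With total counts alone its treated difference was -0.07 (edgeR adjusted p = 0.65), so the call of the opposite direction was lost. The untreated call of Vnn3 was kept only without ApoYap ctrl 4 or BL/6 ctrl 4, with an edgeR adjusted p of up to 0.092.

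Doxycycline in sugar water gave few calls in BL/6. Against BL/6 ctrl, BL/6 Dox had 16 calls (0.123%), 3 higher (0.0231%) and 13 lower (0.100%). Within the transgenic strain, ApoYap Dox against ApoYap ctrl had 8684 calls (67.0%), 4536 higher (35.0%) and 4148 lower (32.0%), with which the main comparison shares its ApoYap Dox libraries. Tubb2a, Klf13 and Arntl were among the genes called on doxycycline in the same direction in both strains. Hsp90aa1, Slc25a25, Ypel2, Sowahb, Dhrs9, Ubxn4, Herc1 and Tfrc were the others. Tubb2a, a beta-tubulin, was lower on doxycycline by -1.26 ± 0.18 in BL/6 (edgeR adjusted p = 0.0019) and by -0.97 ± 0.19 in ApoYap, and differed by 0.15 ± 0.19 between the treated groups (edgeR adjusted p = 0.52). Klf13, a Krüppel-like factor, was higher by 0.91 in BL/6 and 0.86 in ApoYap, and differed by 0.03 between the treated groups. Arntl, the clock activator BMAL1, was lower by -1.57 and -1.22, and differed by 0.39. With total counts alone the treated groups differed by 1.15 in Tubb2a, 1.04 in Klf13 and 1.40 in Arntl, all called, and the ApoYap calls of Tubb2a (-0.06) and Arntl (-0.30) were lost. Tubb2a was also called between the treated groups by limma voom (0.42, adjusted p = 0.045) and without BL/6 Dox 1 and 2 (0.53). The BL/6 call of Klf13 was lost without BL/6 ctrl 1, 2 or 3 or BL/6 Dox 3 or 4 (edgeR adjusted p of up to 0.12). These genes were named after their values were seen. In some genes the change on doxycycline differed between the strains in size or in direction. Dusp1 was lower on doxycycline by -1.62 in BL/6 and higher by 1.51 in ApoYap, and its BL/6 call was kept only without BL/6 ctrl 2 or BL/6 Dox 3 (edgeR adjusted p of up to 0.12). Tfrc, the transferrin receptor, was lower by -1.30 in BL/6 (edgeR adjusted p = 0.0019), by -0.44 in ApoYap (edgeR adjusted p = 0.05, but 0.48 higher with total counts alone), and higher by 0.79 in the treated comparison. Cyp7a1 differed by 1.21 in BL/6 on the drug (edgeR adjusted p = 0.49), by -2.73 in ApoYap and by -4.44 in the main comparison. Fasn had -0.63, -4.22 and -3.04 in the same order. The calls in BL/6 depended on the fit and on single libraries: DESeq2 gave 54 higher and 66 lower, and leaving out 1 library gave 0 to 9 higher and 4 to 23 lower.

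**Figure D5:**
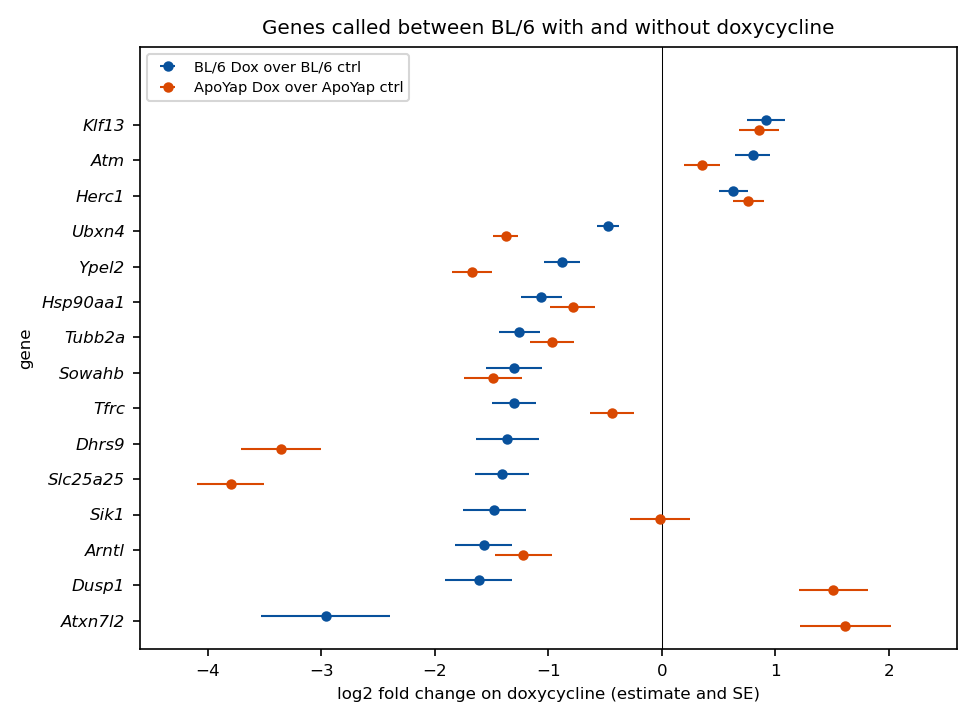
Log2 fold change on doxycycline (estimate and SE) of the genes called in BL/6 Dox against BL/6 ctrl, in BL/6 and in ApoYap mice. Tubb2a and Klf13 stand on the same side in both strains, at -1.26 and -0.97 and at 0.91 and 0.86, while Dusp1 stands at -1.62 in BL/6 and 1.51 in ApoYap.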

How the data were processed

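Messenger RNA of sorted hepatocytes was counted by 3′ tag sequencing. The submitters' processing notes name FastQC, cutadapt and the aligner STAR (version 2.6.1d), the build mm10/GRCm38 and GENCODE M21. How reads were assigned to genes, and on which strand, is not given in the sources used here. The authors deposited raw counts per gene symbol, with no normalization, in 1 table whose columns were matched to samples by their names.

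Here all 25 libraries were fitted with 1 mean per group in edgeR 4.0.16 (R 4.3.3): filterByExpr (minimum count 10, minimum total 15), TMM scaling, robust quasi-likelihood fit and test, and Benjamini-Hochberg adjustment over the 12970 genes tested, with calls at 0.05. All groups share 1 estimate of the spread. Gene positions are GENCODE's, in GRCm38. Total counts per library were 8107539 to 15619135, and 1 count was the smallest step. Intervals at 95% for ratios of summed counts are exact, and they and the floor of 3 counts cover counting error only. No pair of replicates differed by as little as counting noise (chi-square per degree of freedom at least 9.25).

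Replicate numbers in the labels were tested for pairing: the deviations of same-numbered ApoYap Dox and BL/6 Dox libraries from their group means correlated at 0.117, 0.114 and 0.219. Differently numbered libraries correlated at -0.197 to 0.132, so the ranges overlapped and pairing was not settled. A fit with the replicate block was therefore run beside the main one. The alternatives were limma voom (limma 3.58.1) and DESeq2 1.42.0, other scalings, filters and thresholds, and leaving out libraries. Leaving out BL/6 Dox 3 and 4 together was added after seeing the data. The test code was tested on simulated data.

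The gene lists and the comparison were chosen with earlier results of these data known. The text names, among called genes of average log2 CPM of at least 2 whose libraries did not overlap, the 8 of each direction that differed most, the 5 higher and 5 lower with the largest difference among genes called alike in both strain comparisons, the 3 called in opposite directions with the smallest untreated p, up to 4 called members per list with the smallest p, exceptions of 3 or fewer per list, and a few genes named always. Predicted genes and pseudogenes were skipped. Some genes are not reported here.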

Additional observations from a re-analysis of the deposited data

Results flagged for a closer look

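In 173 groups of 4 libraries checked for a library far from the rest, 14 had one, where chance gives about 1 in 20. The library stood alone in Mup8 (BL/6 Dox 3, 260.83 CPM, others 6.63 to 12.3), Mcm10 (BL/6 Dox 3, 136.55, others 105 to 106) and Fgfr3 (BL/6 Dox 4, 10.491, others 14.2 to 14.5). BL/6 Dox 2 stood apart in Tln1 (79.677, others 55.8 to 59.1), S100a1 (436.86, others 315 to 322), Nr1h3 (100.28, others 63.2 to 68.4), F7 (161.98, others 109 to 117), mt-Nd2 (92867, others 66230 to 70783), Hspa1a (0.5955, others 0.259 to 0.283) and the summed monocyte markers (343.74, others 433 to 447). Single counts or few counts set the value in genes otherwise at 0: Apela in BL/6 Dox 3 (0.37747 CPM), Krt4 and Cux2 in BL/6 Dox 2 (0.1191 each) and Uhrf1 in BL/6 Dox 1 (0.14101).

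The strain difference on doxycycline differed from that without it in 7016 genes by edgeR's interaction test. In Cyp17a1, Ide and Vnn3 the 2 strain differences had opposite directions, with interactions of -6.66, -1.65 and -1.73 on the log2 scale.

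In libraries that the comparison does not use, the Lats1/2 knockout, the summed Kupffer cell and macrophage markers were 1063 CPM in the lowest library, above the highest floxed control at 340 CPM.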

How the results depend on the processing

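The direction and side of the threshold of named genes held in 3380 of 3451 values of the main comparison under the alternatives. Scaling decided the balance: total counts alone gave 8983 higher and 1542 lower in the main comparison, 7488 and 1420 in the interaction, 8613 and 1638 within ApoYap and 30 higher between untreated strains. A minimum log2 fold change of 1 gave 2402, 2335 and 2396 lower calls in the first 3 comparisons, and a test against a fold of 1.5 gave 2664, 2352 and 2662. Leaving out 1 library gave 4208 to 4448 higher and 3789 to 4125 lower in the main comparison, 3159 to 3446 and 3247 to 3600 in the interaction, and 4214 to 4419 and 3786 to 4062 within ApoYap. Between untreated strains the calls depended on the fit: DESeq2 gave 41 higher and 69 lower, limma voom 66 and 103, the 2 groups alone 70 and 125, an adjusted p under 0.01 gave 9 and 23, and a fold of 1.5 gave 6 and 16. Leaving out 1 library gave 10 (without BL/6 ctrl 4) to 14 higher and 22 (without ApoYap ctrl 3) to 36 lower there. In BL/6 on doxycycline, DESeq2 gave 54 higher and 66 lower and limma voom 45 and 54. No filter gave 1 higher, a 10 CPM filter 6, the replicate block 1, and each of the stricter thresholds (0.01, log2 of 1, fold of 1.5) 0. The threshold of 0.01 gave 4 lower and the fold of 1.5 gave 1. Without BL/6 Dox 1 and 2 there were 26 higher and 40 lower, and without 3 and 4, 1 and 4. Leaving out 1 library gave 0 (without BL/6 ctrl 2) to 9 higher and 4 (without BL/6 Dox 4) to 23 lower. The count of lists with at least 50% of tested members called one way was 48, and 47 to 50 without 1 library. The log2 ratio of Kupffer marker means was 6.77, 5.76 with TMM scaling and 6.46 to 7.22 without 1 library, and that of the mitochondrial share was -1.23, -2.23 and -1.33 to -1.13.

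With the replicate block, the main comparison had 4437 higher and 4023 lower calls. Of the named genes the block changed the call of 1, Lats1 (-0.44), and it moved 2 list counts, lower p53 targets from 3 to 1 and higher gluconeogenesis genes from 1 to 0, and no other named call in the main comparison. In the other groups pairing by number was not clear. Same-numbered ApoYap Dox and ApoYap ctrl libraries correlated at 0.117, 0.0465 and 0.152, and differently numbered ones at up to 0.184. Between the untreated strains and within BL/6, same-numbered libraries correlated with both signs. In BL/6 on doxycycline the block gave 1 higher call.

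Reversed medians with total counts alone were integrins 0.74, ER chaperones 0.41, heat shock proteins 0.76, NRF2 genes 0.71, X and Y genes 0.63, glycolysis 0.88, mitochondrial ribosome 0.31, clock 0.32 and iron 0.87. Integrins were 0.66 and iron 0.34 without a filter, and the EGFR list -1.18 with the 10 CPM filter. Glycolysis was 0.093 without BL/6 Dox 3 and 4, and -0.19 to 0.061 without 1 library (above 0 without BL/6 Dox 1 or 2). Iron was -0.53 to 0.32 without 1 library (above 0 without ApoYap Dox 2 or BL/6 Dox 1). Cholangiocyte markers were -0.11 to 0.22 (below 0 without ApoYap Dox 1 or BL/6 Dox 1), and erythroid markers -0.17 without BL/6 Dox 1 and 2. With total counts alone, Lats1 was 0.49, Cnn3 0.54, Fn1 0.29, Rbl2 0.29, Ddx3y 0.60 and Ide 0.24 in the main comparison, and Tfrc 0.48 and Hsp90aa1 0.12 within ApoYap. Beyond the scaling, which shifts all values by construction, and the smaller sets of genes or libraries, the cause was not tested. Genes under 1 CPM in a group rest on few counts.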
